A study of Mus musculus with 9 samples.

Results

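The genes described here are 10 genes of natural killer (NK) cells and other cytotoxic lymphocytes, *Il2rb*, *Klrb1c*, *Nkg7*, *Gzma*, *Gzmb*, *Prf1*, *Ncr1*, *Eomes*, *Klrk1*, and *Cd3e*. They were read by symbol from the count files of 9 RNA-Seq libraries, which list 50559 genes, of which 16618 held enough counts to be tested. All 10 passed that filter on low counts, and each would also pass it without the libraries of any one treatment group. They were chosen by measured values, their levels and fold changes across the treatment groups in these same libraries. These are therefore given as a description, and test outcomes printed for the 10 genes are not used as evidence. The libraries were made from CD45+CD11b+ cells sorted from quadriceps muscles of *mdx* mice, which lack dystrophin and are a model of Duchenne muscular dystrophy. For 7 days up to an age of 4.5 weeks, the mice drank vehicle (a sucralose solution, MediDrop), the mineralocorticoid receptor antagonist spironolactone, or the glucocorticoid prednisolone. Each group has 3 libraries, each library holds cells pooled from 3 mice, and the groups include both sexes. The *mdx* mutation is shared by all groups, no libraries of healthy mice are among them, and both drugs are compared with the same vehicle libraries.

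NK cells are innate lymphocytes that kill stressed or infected cells without prior priming, and T cells with the same machinery kill by antigen recognition. Both store perforin and granzymes in cytotoxic granules, and perforin opens the way for granzymes into the target cell. Interleukin-15 maintains NK cells through a receptor that contains the *Il2rb* product, and activating receptors such as NKG2D (encoded by *Klrk1*) and NKp46 (encoded by *Ncr1*) start killing when they meet their ligands. Mature mouse NK cells carry CD11b on their surface, so a sort on CD45 and CD11b does not remove them, although most CD45+CD11b+ cells of injured muscle are macrophages, monocytes, and neutrophils.

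The libraries held 31469815 to 32943512 counts on genes, so that 1 CPM (the count scaled to the library total times its TMM factor, 0.980 to 1.03) stood for 31.6 to 33.7 counts. Transcripts of the sorted surface proteins were abundant in each library. *Itgam*, which encodes CD11b, stood at 812 to 1367 TPM (counts scaled by summed exon length and library total). *Ptprc*, which encodes CD45, stood at 123 to 166 TPM. The summed TPM of the 10 genes came to 13.7% to 71.1% of that of *Ptprc*. That share depends on gene length, since the summed exons of *Ptprc* cover 18764 bases and those of the 10 genes 919 (*Nkg7*) to 7194 (*Klrk1*). In CPM, which does not divide by length, the 10 genes summed to 16.3 to 53.4 and *Ptprc* stood at 545 to 660. A pair of libraries stood apart in neutrophil genes: *S100a8* reached 645 CPM in vehicle 3 and 457 CPM in spironolactone 3, against 39.4 to 164 CPM in the others, and results are therefore also given without both. In bulk RNA, fewer cells of a type and less RNA per cell cannot be told apart.

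The 10 genes lie on 7 mouse chromosomes, and only the lectin-like receptors *Klrb1c* (chr6:128755448-128766178) and *Klrk1* (chr6:129587286-129600827) share a gene cluster, the NK complex of chromosome 6 (positions on GRCm39 from GENCODE). The others are *Il2rb* (chr15:78363456-78395566), *Gzma* (chr13:113230355-113237524), *Gzmb* (chr14:56496295-56499717), *Prf1* (chr10:61133546-61140461), *Nkg7* (chr7:43086497-43087678), *Ncr1* (chr7:4340710-4348171), *Eomes* (chr9:118307280-118315200), and *Cd3e* (chr9:44910037-44920925). Annotated transcripts of other genes overlap *Il2rb*, *Eomes*, and *Cd3e* on the opposite strand and *Klrb1c* and *Cd3e* on the same strand, and the strand setting of the counting is not given in the sources used here, so that reads of overlapping genes may not be told apart for these 4 genes.

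Promoters are shown for 4 of the 8 genes that moved together across the libraries (*Nkg7*, *Gzma*, *Gzmb*, and *Ncr1*) and for *Klrb1c*, which did not follow them. Each run holds the 250 bases before the start of the canonical transcript, 5′ to 3′ on the strand of the gene, and capitals mark matches on either strand to a T-box motif (GTGTGA), a RUNX motif (TGTGGT), or an ETS motif (GGAAGT), which are letters that factors of lymphocytes are known to bind. No match overlapped another in these promoters.
Nkg7 (chr7:43086247-43086496, plus strand): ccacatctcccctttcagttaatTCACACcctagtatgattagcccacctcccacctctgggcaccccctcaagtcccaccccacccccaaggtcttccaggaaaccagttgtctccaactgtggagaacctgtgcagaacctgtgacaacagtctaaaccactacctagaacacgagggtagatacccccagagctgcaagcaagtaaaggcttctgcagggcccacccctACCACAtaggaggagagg
Gzma (chr13:113237525-113237774, minus strand): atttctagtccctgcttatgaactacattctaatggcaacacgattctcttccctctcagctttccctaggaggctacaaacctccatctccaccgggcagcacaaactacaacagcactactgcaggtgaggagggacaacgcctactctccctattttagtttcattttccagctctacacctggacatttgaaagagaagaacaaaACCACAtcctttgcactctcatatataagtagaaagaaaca
Gzmb (chr14:56499718-56499967, minus strand): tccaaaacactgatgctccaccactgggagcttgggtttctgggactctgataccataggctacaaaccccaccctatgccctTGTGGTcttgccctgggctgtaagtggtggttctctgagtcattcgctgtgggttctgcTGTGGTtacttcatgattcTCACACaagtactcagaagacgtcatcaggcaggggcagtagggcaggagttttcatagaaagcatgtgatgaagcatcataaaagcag
Ncr1 (chr7:4340460-4340709, plus strand): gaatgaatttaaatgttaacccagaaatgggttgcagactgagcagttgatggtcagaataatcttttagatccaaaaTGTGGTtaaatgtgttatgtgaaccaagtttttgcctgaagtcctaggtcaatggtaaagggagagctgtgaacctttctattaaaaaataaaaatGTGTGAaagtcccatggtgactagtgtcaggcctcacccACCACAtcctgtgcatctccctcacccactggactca
Klrb1c (chr6:128765605-128765854, minus strand): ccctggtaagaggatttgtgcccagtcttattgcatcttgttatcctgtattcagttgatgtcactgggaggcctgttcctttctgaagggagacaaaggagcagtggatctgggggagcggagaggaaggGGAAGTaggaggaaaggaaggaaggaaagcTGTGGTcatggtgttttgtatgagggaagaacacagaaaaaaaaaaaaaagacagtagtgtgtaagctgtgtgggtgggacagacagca
*Gzmb* and *Ncr1* each held 1 T-box and 2 RUNX matches, *Nkg7* held 1 of each, *Gzma* held 1 RUNX match, and *Klrb1c* held 1 RUNX and 1 ETS match. Over all 10 genes, the T-box motif was present in 4, the RUNX motif in 6, and the ETS motif in 3. The same letters occurred in 11.6%, 13.0%, and 19.0% of 21770 promoters of protein-coding genes of that length. Of the genes not shown, *Il2rb* held T-box matches only, *Prf1* held RUNX and ETS matches, *Cd3e* held an ETS match, and *Eomes* and *Klrk1* held none. These matches are a description of the sequence and do not show that a factor was bound.

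Among the receptors, *Il2rb*, *Ncr1*, and *Klrk1* were highest with spironolactone, whereas *Klrb1c* was not. *Il2rb*, the beta chain of the receptors for interleukin-2 and interleukin-15, stood at 4.65, 6.30, and 7.73 CPM in the vehicle libraries, 11.0, 9.74, and 14.2 CPM in the spironolactone libraries, and 3.13, 2.45, and 4.22 CPM in the prednisolone libraries. Every spironolactone library lay above every vehicle library and every prednisolone library lay below them. Among the 10 genes, only *Il2rb* had all 3 groups fully apart. The share of all genes with the 3 groups apart was not counted, so nothing is read from this. *Klrk1*, which encodes the activating receptor NKG2D, stood at 6.78, 9.17, and 12.2 CPM in the vehicle libraries, 13.5, 11.5, and 14.3 CPM in the spironolactone libraries, and 7.81, 8.07, and 8.73 CPM in the prednisolone libraries. The spironolactone libraries exceeded those of prednisolone, and the vehicle libraries ran from below the prednisolone range into the spironolactone range. *Ncr1*, which encodes NKp46, an activating receptor largely restricted to NK cells and some innate lymphoid cells, stood at 0.669, 0.343, and 0.592 CPM in the vehicle libraries, 2.25, 1.23, and 1.80 CPM in the spironolactone libraries, and 0.182, 0.275, and 0.683 CPM in the prednisolone libraries. All 3 spironolactone libraries were above all others, and vehicle and prednisolone libraries overlapped. *Klrb1c*, which encodes NK1.1, a surface antigen by which NK cells of some mouse strains are stained, stood at 1.28, 2.34, and 3.02 CPM in the vehicle libraries, 3.58, 2.28, and 2.66 CPM in the spironolactone libraries, and 2.61, 3.24, and 4.40 CPM in the prednisolone libraries. Its groups overlapped in every comparison, and its highest library was a prednisolone library.

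The granule genes *Gzma*, *Gzmb*, and *Prf1* were higher in every spironolactone library than in any other library, and *Nkg7* was lower in every prednisolone library than in any other. *Gzma*, which encodes the tryptase granzyme A, stood at 1.0, 1.25, and 1.56 CPM in the vehicle libraries, 4.21, 2.66, and 5.0 CPM in the spironolactone libraries, and 0.881, 0.397, and 1.16 CPM in the prednisolone libraries. *Gzmb*, which encodes granzyme B, a protease that activates caspases in the target cell, stood at 1.0, 1.37, and 2.40 CPM in the vehicle libraries, 6.11, 3.86, and 4.81 CPM in the spironolactone libraries, and 1.34, 0.611, and 1.96 CPM in the prednisolone libraries. For both granzymes the vehicle and prednisolone libraries overlapped. *Prf1*, which encodes perforin, stood at 1.34, 0.624, and 1.15 CPM in the vehicle libraries, 3.16, 1.42, and 3.45 CPM in the spironolactone libraries, and 0.972, 0.183, and 1.16 CPM in the prednisolone libraries. Spironolactone 2, the lowest library of its group for *Prf1*, was close to vehicle 1. *Nkg7*, which encodes a membrane protein of cytotoxic granules, stood at 1.31, 1.25, and 2.56 CPM in the vehicle libraries, 2.50, 2.91, and 4.46 CPM in the spironolactone libraries, and 0.607, 0.367, and 1.01 CPM in the prednisolone libraries. Its lowest spironolactone library was just under vehicle 3, so that only prednisolone stood fully apart.

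*Eomes*, a T-box transcription factor of mature NK cells and memory CD8+ T cells, was low in all prednisolone libraries, and *Cd3e*, a chain of the T cell receptor complex, had few counts throughout. *Eomes* stood at 0.882, 1.25, and 1.71 CPM in the vehicle libraries, 2.28, 0.695, and 1.93 CPM in the spironolactone libraries, and 0.304, 0.306, and 0.416 CPM in the prednisolone libraries. No prednisolone library reached the lowest vehicle or spironolactone library, and spironolactone 2 was below all vehicle libraries. *Cd3e* stood at 0.243, 0.593, and 0.436 CPM in the vehicle libraries, 0.190, 0.348, and 0.760 CPM in the spironolactone libraries, and 0.152, 0.428, and 0.208 CPM in the prednisolone libraries. Its groups overlapped in every comparison.

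Counts were low for several of the genes, which limits their precision. *Cd3e* had 5 to 24 counts per library and was under 10 counts in 4 libraries, too few for a reliable fold change. *Ncr1* had 6 counts in prednisolone 1 and 9 in prednisolone 2, and *Prf1* had 6 counts in prednisolone 2. *Eomes* had 10 counts in prednisolone 1 and in prednisolone 2. The best covered genes were *Klrk1*, with 223 to 453 counts, and *Il2rb*, with 80 to 448. Standard errors below include counting error and the spread between pools.

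**Figure D1:**
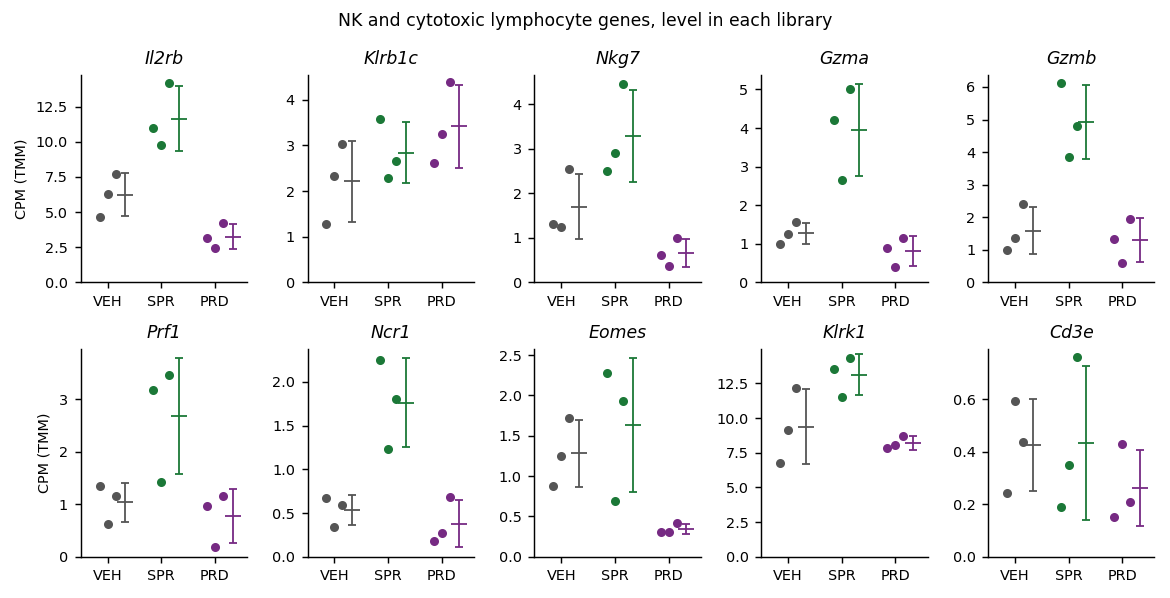
Level of each of the 10 genes in TMM-normalized CPM (vertical axis, starting at 0, a separate scale for each gene) in the vehicle (VEH), spironolactone (SPR), and prednisolone (PRD) libraries. Points are libraries of 3 pooled mice and bars are the mean ± SD (n = 3). The means of *Il2rb* were 11.6, 6.23, and 3.26 CPM with spironolactone, vehicle, and prednisolone.

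Levels of different genes were compared in TPM, which divides counts by the summed exon length of the gene. In the vehicle libraries the order of the mean TPM was *Nkg7* at 8.12 ± 3.27 (SD, n = 3), *Il2rb* at 6.28 ± 1.29, *Klrk1* at 5.71 ± 1.42, *Gzmb* at 4.84 ± 2.03, and *Gzma* at 3.61 ± 0.643. Below them came *Klrb1c* at 3.02 ± 1.09 TPM, *Prf1* at 1.74 ± 0.680, *Ncr1* at 1.52 ± 0.535, *Eomes* at 1.35 ± 0.387, and *Cd3e* at 0.454 ± 0.174. Neighbours in this order differed by less than the sum of their SDs, except that *Cd3e* lay below *Eomes* by more. With spironolactone, the granule genes *Nkg7* (15.6 ± 4.40 TPM) and *Gzmb* (15.1 ± 4.02 TPM) led, followed by *Il2rb* (11.7 ± 2.08 TPM) and *Gzma* (11.2 ± 3.34 TPM). With prednisolone, *Klrk1* (5.35 ± 0.373 TPM) and *Klrb1c* (5.02 ± 1.38 TPM) led, and *Nkg7* was at 3.37 ± 1.66 TPM.

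The first comparison asks how the glucocorticoid affected these genes. Relative to vehicle, 9 of the 10 genes had lower fitted levels with prednisolone, with *Klrb1c* as the exception at a log2 fold change of 0.63 ± 0.32 (SE). *Eomes* was the furthest below vehicle at -1.89 ± 0.49 on the log2 scale. *Nkg7* followed at -1.36 ± 0.42 and *Il2rb* at -0.93 ± 0.24, and these 3 genes were the ones with all prednisolone libraries below all vehicle libraries. Such separation occurred in 9.27% of all genes tested. None of the 10 had all prednisolone libraries above all vehicle libraries, as 10.4% of all genes did. The granzymes, *Prf1*, *Ncr1*, *Cd3e*, and *Klrk1* were lower by less than 2 SE in the fit, from -0.68 ± 0.68 for *Cd3e* to -0.19 ± 0.19 for *Klrk1*. The median log2 fold change of the 10 genes was -0.56, against -0.014 over all genes tested. In the quasi-likelihood test of edgeR none of the 10 passed an adjusted *P* of 0.05, 3 had an unadjusted *P* under 0.05, and 1.76% of all genes passed the adjusted threshold (0.758% lower with prednisolone), with 14.2% at the unadjusted one. DESeq2 called 3 of the 10, *Il2rb*, *Nkg7*, and *Eomes*, beside 4.64% of all genes. edgeR called *Il2rb* and *Eomes* without vehicle 1 (4.83% of all genes) and *Eomes* without spironolactone 2 (1.38% of all genes). As the genes were chosen on fold changes across these groups, nothing is read from these counts and the median.

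The second comparison asks the same of the mineralocorticoid receptor antagonist. All 10 genes had higher fitted levels with spironolactone than with vehicle, and *Ncr1*, *Gzma*, and *Gzmb* were the furthest above it. The log2 fold change was 1.71 ± 0.50 for *Ncr1*, 1.64 ± 0.37 for *Gzma*, and 1.63 ± 0.40 for *Gzmb*, so that each was more than 3-fold higher. *Prf1* (1.36 ± 0.53), *Nkg7* (0.95 ± 0.39), and *Il2rb* (0.90 ± 0.23) came next. The smaller values were 0.49 ± 0.19 for *Klrk1*, 0.36 ± 0.33 for *Klrb1c*, 0.35 ± 0.44 for *Eomes*, and 0.029 ± 0.65 for *Cd3e*. In 5 of the genes, *Il2rb*, *Gzma*, *Gzmb*, *Prf1*, and *Ncr1*, all spironolactone libraries lay above all vehicle libraries, as they did in 6.99% of all genes tested, and in none of the 10 did they all lie below (6.50% of all genes). The median log2 fold change of the 10 genes was 0.93, against 9.0e-05 over all genes. None of the 10 passed an adjusted *P* of 0.05 in edgeR, where only 0.0181% of all genes did, and 7 had an unadjusted *P* under 0.05 (9.29% of all genes). DESeq2 called 3, *Il2rb*, *Gzma*, and *Gzmb*, beside 1.60% of all genes. Here too the genes were chosen on these fold changes, so nothing is read from these counts and the median.

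The widest differences were between the drugs. With spironolactone, *Nkg7*, *Gzma*, *Eomes*, and *Ncr1* were more than 4-fold higher than with prednisolone, at log2 fold changes of 2.31 ± 0.42, 2.28 ± 0.39, 2.24 ± 0.49, and 2.2 ± 0.51. *Gzmb* was at 1.91 ± 0.40, *Il2rb* at 1.83 ± 0.24, *Prf1* at 1.79 ± 0.54, and *Klrk1* at 0.68 ± 0.19. *Cd3e* was at 0.71 ± 0.68 and *Klrb1c* at -0.27 ± 0.32, and these were the genes whose libraries overlapped. The other 8 had every spironolactone library above every prednisolone library, as 15.1% of all genes did. In edgeR, 6 of the 10 passed an adjusted *P* of 0.05 upward (*Il2rb*, *Nkg7*, *Gzma*, *Gzmb*, *Ncr1*, and *Eomes*), beside 2.38% of all genes tested in that direction, 2.79% downward, and 5.17% in either. The rule that chose the genes used this contrast, so nothing is read from that count. Without prednisolone 1, prednisolone 2, or spironolactone 3 the count fell to 3 (*Il2rb*, *Nkg7*, and *Gzma*). The share of all genes called in either direction fell as well, to 1.77%, 1.35%, and 1.58%. Without both vehicle 3 and spironolactone 3 the count was 4 (the same 3 and *Gzmb*), beside 1.68% of all genes.

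**Figure D2:**
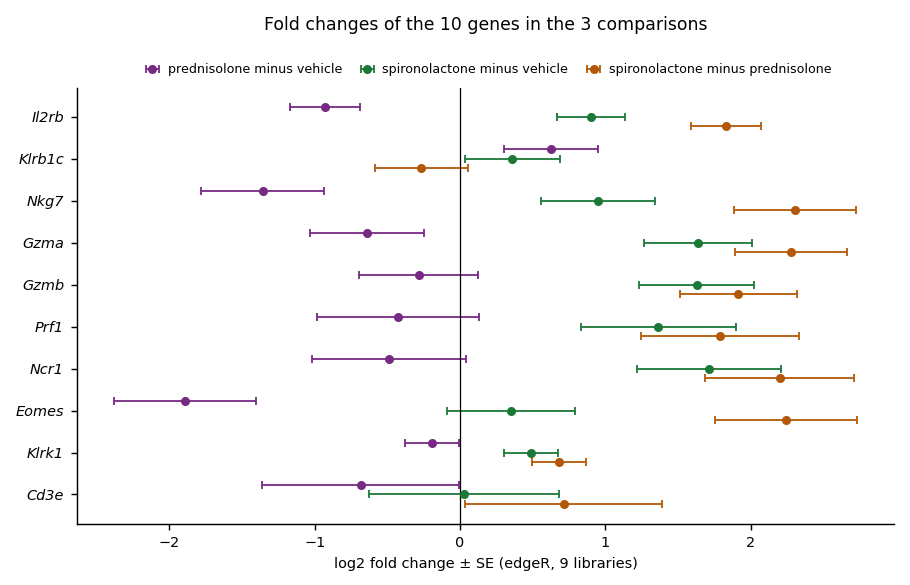
Log2 fold change (horizontal axis) of each of the 10 genes with its SE, from edgeR fitted on all 9 libraries, for prednisolone against vehicle, spironolactone against vehicle, and spironolactone against prednisolone. The first lies left of 0 for all genes but *Klrb1c*, the second lies right of 0 for all, and the third runs from -0.27 (*Klrb1c*) to 2.31 (*Nkg7*).

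Summed over the 10 genes, the level was 25.7 ± 7.17 CPM with vehicle (SD, n = 3), 46.3 ± 8.66 CPM with spironolactone, and 19.4 ± 4.0 CPM with prednisolone. The 3 vehicle libraries ranged from 19.2 to 33.3 CPM and overlapped the prednisolone range of 16.3 to 23.9 CPM, while the spironolactone libraries ranged from 36.6 to 53.4 CPM. *Klrk1* and *Il2rb* made up much of that sum. Without them the sums were 10.1 ± 2.99, 21.5 ± 5.31, and 7.95 ± 2.71 CPM in the same order. Within their groups, vehicle 3 and spironolactone 3, the libraries high in neutrophil genes, had the highest sums. With both left out, spironolactone exceeded prednisolone by 23.3 CPM, against 26.9 CPM with all libraries. It exceeded vehicle by 20.9 CPM, against 20.6 CPM. The difference of prednisolone from vehicle was then -2.41 CPM, against -6.25 CPM. With single libraries left out, that difference ran from -9.50 CPM (without vehicle 1) to -2.41 CPM (without vehicle 3).

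The mean level was highest with spironolactone and lowest with prednisolone in 9 of the 10 genes, and the genes also moved together from library to library. Among the 8 genes other than *Klrb1c* and *Cd3e*, Pearson's *r* of log2 CPM over the 9 libraries ran from 0.64 to 0.97 (median 0.86, 28 pairs). *Klrb1c* and *Cd3e* had low values with these 8 (medians of 0.028 and 0.29), so that leaving them out raises this range. The closest pair was *Il2rb* and *Nkg7* at 0.97, and the granzymes *Gzma* and *Gzmb* stood at 0.96. After the mean of each group was subtracted, the 28 values ran from 0.14 to 0.90 with a median of 0.64, so that libraries of the same group that were high in one of these genes tended to be high in the others. These values are a description over 9 libraries that share the treatment groups, and those of *Ncr1* and *Prf1* rest on few counts.

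*Klrb1c* behaved differently between and within the groups. Its *r* with the 8 genes over all libraries had a median of 0.028 (from -0.094 to 0.38). After group means were subtracted the median was 0.59 (from 0.091 to 0.87), with *Klrk1* at 0.87 and *Eomes* at 0.74. Its group means were 2.21 ± 0.880 CPM with vehicle, 2.84 ± 0.668 CPM with spironolactone, and 3.42 ± 0.905 CPM with prednisolone (SD, n = 3), which overlapped. *Gm44511* overlaps *Klrb1c* on the same strand. *Cd3e*, with its few counts, had a median *r* of 0.29 with the 8 genes and of -0.017 after subtraction.

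**Figure D3:**
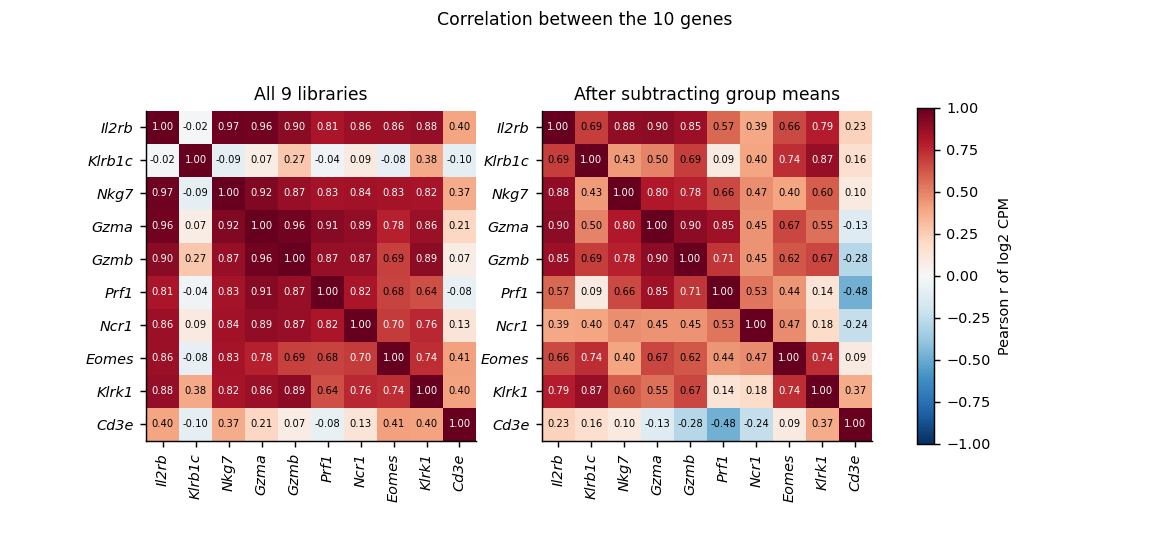
Pearson's *r* of log2 CPM (color, from −1 to 1) between the 10 genes over the 9 libraries (left) and after subtracting the mean of each group (right). The 8 genes other than *Klrb1c* and *Cd3e* form a block with a median of 0.86 on the left and 0.64 on the right, and *Klrb1c* joins it on the right only.

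Other genes of the NK and cytotoxic program were described from lists of 18 further receptors and 13 further effectors, of which 17 and 5 had enough counts. Between the drugs, *Klra8*, which encodes the activating receptor Ly49H, was the only one of the 22 to pass, with spironolactone higher by 3.15 ± 0.75 on the log2 scale (adjusted *P* = 0.030, edgeR), where 2.38% of all genes rose and 5.17% passed in either direction. It had 18, 30, and 65 counts in the spironolactone libraries and 6, 1, and 6 in the prednisolone libraries. It passed the low-count filter only through the spironolactone libraries, where it is high, so that its difference is no independent result. Ly49 genes are near-identical copies of each other, so that its counts may include reads of its neighbours, and the call was lost without spironolactone 2 or 3 or any prednisolone library (log2 fold changes of 2.50 to 3.49 over all fits), and in limma-voom. At an unadjusted *P* under 0.05 there were 11 of the 22, as were 22.5% of all genes tested. Every spironolactone library was above every prednisolone library in 10 of all 22 (15.1% of all genes) and below in 1 (15.2% of all genes), and these were not all among the genes under an unadjusted *P* of 0.05. Of the 22, 6 (*Klra4*, *Klra7*, *Klra8*, *Klra9*, *Klrg1*, and *Cd96*) passed the low-count filter only through the spironolactone libraries, as 4.49% of all genes did. All 6 are among the 10 genes with spironolactone above prednisolone, so that nothing is read from that count. The rest of those 10 were *Cd160*, *Xcl1*, *Ctsw*, and *Tnfsf10*. Among the other 16 of the 22, 5 had an unadjusted *P* under 0.05. The median log2 fold change was 0.36 over these 16 and 1.19 over the 22, against 0.015 and 0.026 over all genes with the same restriction and without it.

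The receptors of the list with the most counts did not pass in any comparison. *Cd244a*, a SLAM-family receptor that macrophages can also express, stood at 16.7, 21.3, and 24.0 CPM in the vehicle libraries, 16.3, 21.0, and 23.7 CPM in the spironolactone libraries, and 24.6, 20.0, and 23.4 CPM in the prednisolone libraries. Its value between the drugs was -0.16 ± 0.16 on the log2 scale. *Il18rap*, a chain of the interleukin-18 receptor, was at -0.30 ± 0.29 and *Il12rb2*, a chain of the interleukin-12 receptor, at -0.35 ± 0.19. These 3 genes made up most of the summed level of the receptor list, which was 63.6 ± 15.8 CPM with vehicle, 65.7 ± 11.0 CPM with spironolactone, and 64.6 ± 4.88 CPM with prednisolone. Among effectors, *Tnfsf10*, which encodes the death ligand TRAIL, was at 0.83 ± 0.28 and *Ctsw*, a cathepsin of NK and CD8+ T cells, at 1.54 ± 0.49, and both missed the threshold in the reported edgeR fit (adjusted *P* = 0.095 and 0.084). Both were called by DESeq2 and by edgeR without a low-count filter, and *Ctsw* also when only 2 groups were fitted and with the replicate number as a block. *Serpinb9*, which protects cells from granzyme B and is also made by myeloid cells, was at -0.10 ± 0.19. The granzyme genes *Gzmd*, *Gzme*, *Gzmf*, *Gzmg*, and *Gzmk* were listed at 0 in every library. Against vehicle, none of the 22 genes passed with either drug in edgeR, where an unadjusted *P* under 0.05 was reached by 2 with prednisolone (14.2% of all genes) and 4 with spironolactone (9.29% of all genes), and none passed in DESeq2. Their median log2 fold changes were -0.45 and 0.56, against -0.014 and 9.0e-05 over all genes tested. The 2 genes with prednisolone (*Klra8* and *Cd96*), and *Klra7* among the 4, passed the low-count filter only through the spironolactone libraries. So did 6 of the 22 in all, so that nothing is read from these counts and medians.

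**Figure D4:**
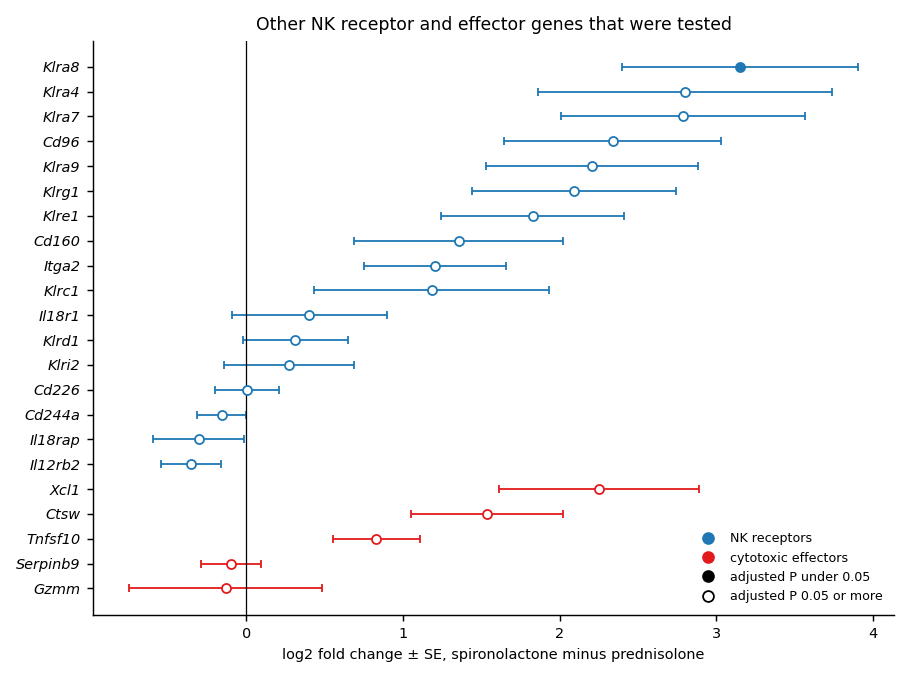
Log2 fold change of spironolactone against prednisolone (horizontal axis, with SE, edgeR on 9 libraries) for the 22 further NK receptor and cytotoxic effector genes with enough counts. Filled points passed an adjusted *P* of 0.05 (*Klra8* alone, at 3.15), open points did not, and 17 of the 22 points lie right of 0, among them those of the 6 genes that passed the low-count filter only through the spironolactone libraries.

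The lectin-like receptor genes can also be read by their place in the genome. The listed *Klr* genes of the NK complex, 11 in number with *Klrb1c* and *Klrk1* among them, span 1455 kb of chromosome 6 (chr6:128755448-130210370), and 10 had enough counts. Of these, 9 had a higher fitted level with spironolactone than with prednisolone, with a median log2 fold change of 1.51 and a range from -0.27 (*Klrb1c*) to 3.15 (*Klra8*). Of the 10, *Klra4*, *Klra7*, *Klra8*, and *Klra9* passed the low-count filter only through the spironolactone libraries, so that nothing is read from this median. *Klrb1c* and *Klrk1* lie 821 kb apart within it.

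T cells share the cytotoxic genes. Of 14 T cell markers tested, 13 had a higher fitted level with spironolactone than with prednisolone, as did 8871 of all 16618 genes tested. *Cd4*, *Cd28*, and *Foxp3* rose with spironolactone relative to prednisolone, by 1.10 ± 0.19, 1.24 ± 0.17, and 1.96 ± 0.53 on the log2 scale (adjusted *P* = 0.0073, 0.0018, and 0.04999), and 8 of the 14 had every spironolactone library above every prednisolone library. Over all genes tested, 2.38% rose and 15.1% had their libraries apart in this way. Of the 14, 2 (*Cd3d* and *Ctla4*) passed the low-count filter only through the spironolactone libraries. *Cd28*, a costimulatory receptor, fell by 0.90 with prednisolone relative to vehicle (adjusted *P* = 0.016), though not without prednisolone 1 or 2 (log2 fold changes of -0.99 to -0.75 over all fits that were tried). *Cd4* and *Ccr7*, which with *Cd28* had the most counts, are also made by monocytes and dendritic cells, and *Ccr7* was at -0.20 ± 0.40 between the drugs. The call of *Foxp3*, a factor of regulatory T cells, was lost with either other normalization (RLE or library totals) and without vehicle 2 or 3, any spironolactone library, or prednisolone 1 or 2 (1.58 to 2.96), while those of *Cd4* and *Cd28* were kept whichever library was left out. Summed over all 18 T cell markers, levels were 40.5 to 52.8 CPM with vehicle, 48.5 to 66.0 CPM with spironolactone, and 26.9 to 35.8 CPM with prednisolone. The T cell receptor constant genes *Trac*, *Trbc1*, *Trbc2*, and *Trdc* were listed at 0 in every library, while *Cd3d* and *Cd3g* had 2 to 30 and 8 to 66 counts per library. Whether the annotation used for counting covered the exons of the constant genes is not given in the sources used here, so that these zeros are no measure of absence.

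B cells have no part in the cytotoxic program, and some of their markers differed as well. *Cd79a* and *Cd79b*, the signaling chains of the B cell receptor, rose with spironolactone relative to prednisolone, by 3.28 ± 0.64 (adjusted *P* = 0.012) and 0.81 ± 0.19 (adjusted *P* = 0.031), among 8 of 12 markers with enough counts. *Cd79a* is one of 4 of the 8 that passed the low-count filter only through the spironolactone libraries, where it is high, so that its difference is no independent result. Over all genes tested, 2.38% rose in this comparison. The call of *Cd79a* was lost without prednisolone 2 (2.81 to 3.78 over all fits), and that of *Cd79b* without spironolactone 2 or 3 or prednisolone 1 or 2 (0.67 to 0.98). Over all 12 the sums were 57.0 to 67.0 CPM with vehicle, 65.1 to 71.5 CPM with spironolactone, and 43.1 to 56.9 CPM with prednisolone. *Cd22*, which macrophages can also express, made up most of that sum, and *Ebf1* was at 0.99 ± 0.32 between the drugs. *Ighm* and *Igkc* were listed at 0 in every library and add nothing to the sum, and the same limit holds for them as for the T cell receptor constant genes. *S100a8* and *Ly6g*, genes of neutrophils, and *Ly6c2*, a gene of monocytes, had every spironolactone library above every prednisolone library. They were at 1.62 ± 1.07, 3.63 ± 1.70, and 0.72 ± 0.47 between the drugs (adjusted *P* = 0.44, 0.27, and 0.43, edgeR). Of 10 myeloid markers, 5 had their libraries apart in this direction and 2 in the other (15.1% and 15.2% of all genes). The part of T cells, B cells, neutrophils, and monocytes in the values of the 10 genes was not tested. *Itgam*, the gene of the sorted CD11b, was lower by 0.43 ± 0.11 on the log2 scale with spironolactone than with prednisolone (adjusted *P* = 0.035), and *Ptprc* was at -0.10 ± 0.094. The call of *Itgam* was lost without spironolactone 1 or 3 or any prednisolone library (-0.52 to -0.39).

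**Figure D5:**
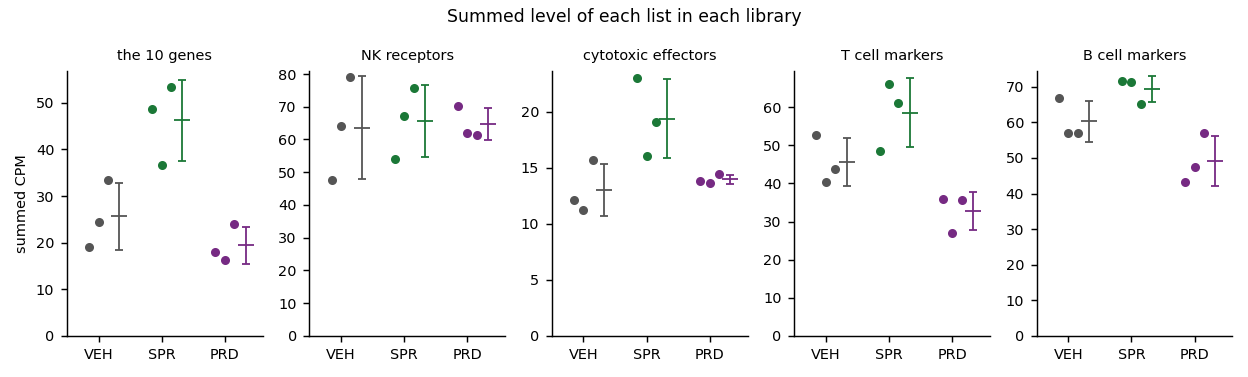
Summed TMM-normalized CPM (vertical axis, starting at 0) of the 10 genes, of 18 further NK receptors, of 13 further cytotoxic effectors, of 18 T cell markers, and of 12 B cell markers in each library. Points are libraries and bars are the mean ± SD (n = 3) of vehicle (VEH), spironolactone (SPR), and prednisolone (PRD); every list but the receptors has each spironolactone library above each prednisolone library.

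Of 9 lymphocyte transcription factors, 8 had a lower fitted level with prednisolone than with vehicle, as did 8668 of all 16618 genes tested. Several of the 9 are also used by myeloid cells. Over all genes, 0.758% were called lower with prednisolone than with vehicle, and 2.38% were called higher with spironolactone than with prednisolone. *Ikzf3*, the lymphoid zinc finger factor Aiolos, fell with prednisolone relative to vehicle by 1.33 on the log2 scale (adjusted *P* = 0.020) and was higher with spironolactone than with prednisolone by 1.64 ± 0.26 (adjusted *P* = 0.0039). *Id2*, which NK cells need and myeloid cells also express, fell with prednisolone by 0.53 (adjusted *P* = 0.026). *Tbx21*, the T-box factor closest in role to *Eomes*, was not among the calls, and neither were *Nfil3* and *Runx3*, which had more counts. *Nfil3*, a factor that NK cells need and that myeloid cells also express, was at -0.69 ± 0.17 with prednisolone and -0.67 ± 0.17 with spironolactone relative to vehicle (adjusted *P* = 0.064 and 0.17), with every library of either drug below every vehicle library, and at 0.022 ± 0.17 between the drugs. *Runx3* was at 0.0094 ± 0.12 and -0.21 ± 0.12 relative to vehicle and -0.22 ± 0.12 between the drugs. Against vehicle, the call of *Ikzf3* was lost in limma-voom and without vehicle 3 or prednisolone 1 or 2 (-1.55 to -1.11) and that of *Id2* without vehicle 2 or prednisolone 2 or 3, or without both vehicle 3 and spironolactone 3 (-0.67 to -0.45).

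Among 15 signaling genes tested, 4 rose with spironolactone relative to prednisolone and 1 fell, as did 2.38% and 2.79% of all genes. Those that rose were *Lck*, a kinase of T and NK cells, at 1.65 ± 0.35, *Prkcq*, a protein kinase C of T cells, at 1.61 ± 0.25, the adapter gene *Sh2d2a* at 1.63 ± 0.36, and *Sh2d1b1*, the SLAM adapter EAT-2, at 0.55 ± 0.12 (adjusted *P* = 0.017, 0.0039, 0.020, and 0.021). *Il2rg*, the common gamma chain that pairs with the *Il2rb* product, went the other way and was lower by 0.41 (adjusted *P* = 0.030). It stood at 125, 144, and 147 CPM in the vehicle libraries, 142, 151, and 127 CPM in the spironolactone libraries, and 195, 172, and 192 CPM in the prednisolone libraries. Relative to vehicle, *Il2rg* rose with prednisolone by 0.43 ± 0.10, *Fyn* rose by 0.46 ± 0.093, and *Prkcq* fell by 1.23 (adjusted *P* = 0.044, 0.023, and 0.026). *Il2rg* is used by myeloid cells, and *Fyn*, *Il7r*, and *Jak3* are also expressed outside lymphocytes. Between the drugs, the call of *Lck* was lost without spironolactone 2 or 3 or prednisolone 1 or 2 (1.46 to 2.11), that of *Sh2d2a* without spironolactone 3 or prednisolone 1 or 2 (1.21 to 1.85), and that of *Sh2d1b1* without spironolactone 2 or 3 or any prednisolone library (0.48 to 0.66). That of *Il2rg* was lost without any spironolactone library or any prednisolone library (-0.47 to -0.35). Against vehicle, the calls were lost without vehicle 2 or 3, spironolactone 1 or 2, or any prednisolone library for *Il2rg* (0.36 to 0.48), vehicle 2 or any prednisolone library for *Fyn* (0.41 to 0.55), and vehicle 2 or 3 or any prednisolone library for *Prkcq* (-1.34 to -1.10). Both *Il2rg* and *Prkcq* also missed the threshold there when only 2 groups were fitted, as *Il2rg* did with the replicate number as a block. With spironolactone against vehicle none of these signaling genes or transcription factors passed in edgeR, and 3 and 2 had an unadjusted *P* under 0.05 (9.29% of all genes).

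The genes outside the 10 that followed their mean standardized level most closely over the 9 libraries were *Nudt22* (*r* = 0.97), *Nat9* (0.96), *Keap1* (0.96), *Gm10132* (0.96), and *Ednra* (0.96). None of them is on the lymphocyte lists. *Keap1*, which encodes a sensor of oxidative stress, stood at 54.9 ± 3.34 CPM with vehicle, 60.5 ± 2.13 CPM with spironolactone, and 51.9 ± 2.76 CPM with prednisolone (SD, n = 3). Over 13232 genes with a mean of at least 1 CPM, 40 (0.302%) reached an *r* of 0.9. Of the listed lymphocyte genes, *Klra4* (0.94), *Zap70* (0.93), *Cd79a* (0.93), and *Cd96* (0.93) were closest, named after their values were seen. Each had a mean under 1 CPM, so that they are not among the genes of that share. *Klra4*, *Cd79a*, and *Cd96* passed the low-count filter only through the spironolactone libraries, so that nothing is read from their likeness. *Sh2d2a* (0.91) and *Ets1* (0.90), with means of 2.27 and 10.9 CPM, are among the genes of that share. The neutrophil gene *S100a8* had an *r* of 0.69 over the libraries and of 0.62 after group means were subtracted.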

How the data were processed

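RNA of sorted CD45+CD11b+ quadriceps cells was sequenced on a DNBSEQ platform in 9 libraries, 3 per treatment. The authors deposited whole-number counts per gene without normalization, made by alignment to mm39 with HISAT2 2.2.1 and counting with HTSeq 0.11.3 (versions per the submitters' processing notes). Strand setting and annotation release are not given in the sources used here. The deposited tables of the authors' own comparisons (fold changes and *P* values) were not used. Closing lines that name no gene held 17.2% to 21.8% of a library and were left out.

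The main test was glmQLFTest of edgeR 4.0.16 in R 4.3.3, the quasi-likelihood test (TMM, robust fit, all 9 libraries in one fit, filterByExpr with a minimum count of 10 and total of 15). *P* values were two-sided and were adjusted by Benjamini-Hochberg across the whole table of tested genes, with calls made under 0.05. SEs are the absolute log2 fold change divided by the square root of F. Levels are TMM-normalized CPM. TPM used summed exon lengths of GENCODE, and correlations used log2 CPM with a prior count of 2. A replicate is a pool of 3 mice. Libraries of a group differed beyond sampling noise (chi-square per degree of freedom 18.0 to 57.8), and the biological coefficient of variation was 0.170.

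The 10 genes and all gene lists were chosen with earlier results of these data known. Named genes are the 10, and of each other list those past the threshold in any comparison and the 3 with the highest mean CPM, and the 5 genes most correlated with the mean standardized level of the 10. Promoters were read from GRCm39 before GENCODE canonical transcript starts. Alternatives were DESeq2 1.42.0, limma-voom (limma 3.58.1), fits on 2 groups, RLE or library totals as normalization, other count filters, a replicate block, leaving out each library, and, added after seeing the data, leaving out vehicle 3 and spironolactone 3 together. The fits were tested on simulated data. The values of 1 listed gene are not reported here.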

Additional observations from a re-analysis of the deposited data

How the results depend on the processing

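The directions of the 10 genes held under most settings. Of 531 fold changes recomputed over the alternatives, 5 moved by more than their error (*Klrk1* without vehicle 3, alone or with spironolactone 3, and *Ncr1* without prednisolone 3), and 11 changed sign, none of them a call. The number of the 10 genes called depended on the tool and filter. For prednisolone against vehicle it was 0 (1.76% of all genes). It was 3 with DESeq2 (4.64%) and 3 without a low-count filter (3.43%), with *Il2rb*, *Nkg7*, and *Eomes* in both. Without each replicate in turn it was 0 to 2 (0.402% to 4.83%), with *Il2rb* and *Eomes* called without vehicle 1 and *Eomes* without spironolactone 2. For spironolactone against vehicle it was 0 (0.0181% of all genes), and 3 with DESeq2 (1.60%) and 5 without a filter (1.78%). Without each replicate in turn it was 0 (0% to 0.199%). Between the drugs it was 6 (5.17% of all genes), and from 3 to 7 without each replicate in turn (1.35% to 11.1%). Under the other alternatives it was 4 to 8 (1.68% to 10.1%). *Il2rb*, *Nkg7*, and *Gzma* were called in every one of these fits. The 10 genes were chosen on these data, so nothing is read from these counts. A filter of at least 10 counts in every library removed *Prf1*, *Ncr1*, and *Cd3e*.

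Of the 22 further NK receptor and effector genes, 1 was called between the drugs (5.17% of all genes). The count was 8 with DESeq2 (10.1%), 6 when only 2 groups were fitted (9.98%), and 6 without a filter (6.52%). With at least 10 counts in every library it was 0 (6.29%). It was also 0 without both vehicle 3 and spironolactone 3 (1.68%), a setting chosen after seeing the data. Without each replicate in turn it was 0 to 4 (1.35% to 11.1%), the highest without vehicle 1 (11.1%). For prednisolone against vehicle 1 was called without a filter (3.43% of all genes). Over all genes, the calls ranged over 69 to 1019 for prednisolone against vehicle, 0 to 528 for spironolactone against vehicle, and 232 to 1940 between the drugs. Of 21 calls of listed genes other than the 10, 4 were kept whichever library was left out (*Cd4*, *Cd28*, *Ikzf3*, and *Prkcq*, all between the drugs), and none changed direction. Without both vehicle 3 and spironolactone 3, the calls kept were those of *Cd28* (in both comparisons), *Fyn* against vehicle, and *Cd4*, *Cd79a*, *Ikzf3*, *Prkcq*, and *Raet1d* between the drugs. Replacing TMM by library totals moved the median of all genes by at most 0.0361 on the log2 scale.

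Correlations of same-numbered libraries after subtracting group means ran from -0.038 to 0.15, and 2 of 9 were over 0.1. Both were of vehicle with spironolactone, at 0.12 for replicate 1 and 0.15 for replicate 3. Whether same-numbered libraries were handled together is not given in the sources used here and was not tested. With the replicate number as a block, 1 of the 10 genes was called for prednisolone against vehicle (*Il2rb*, beside 2.02% of all genes). For spironolactone against vehicle it was 0 (0.0481% of all genes). Between the drugs 8 of the 10 and 4 further NK genes were called (6.51% of all genes). Depth limits *Cd3e*, *Ncr1*, and *Prf1*, where a difference of a few reads changes the value.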

Other observations

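Ligands and cytokines that act on NK cells were described as a further list of 12 genes, of which 9 had enough counts. *Raet1d* and *Raet1e*, which encode ligands of NKG2D, the *Klrk1* product, were lower with spironolactone than with prednisolone, by 1.29 ± 0.28 and 1.13 ± 0.30 on the log2 scale (adjusted *P* = 0.022 and 0.046, edgeR), which is opposite in sign to *Klrk1* itself. In this comparison 2.79% of all genes fell. *Raet1d* stood at 3.25, 4.46, and 6.51 CPM in the vehicle libraries, 3.13, 3.22, and 4.40 CPM in the spironolactone libraries, and 6.20, 8.31, and 11.9 CPM in the prednisolone libraries. *Raet1e* stood at 2.13, 2.71, and 3.52 CPM in the vehicle libraries, 1.39, 2.31, and 1.96 CPM in the spironolactone libraries, and 3.71, 5.65, and 3.06 CPM in the prednisolone libraries. Every spironolactone library was below every prednisolone library for both genes. They are closely similar copies of each other. The annotated span of *Raet1e* (chr10:22034345-22250718) also holds all of *Raet1d* (chr10:22236451-22250718) on the same strand. Their counts may therefore share reads, and their calls need not be separate observations. The call of *Raet1d* was lost without spironolactone 1 or 2 or prednisolone 2 or 3 (-1.49 to -1.02 over all fits). That of *Raet1e* was lost in limma-voom and without vehicle 2, any spironolactone library, or any prednisolone library (-1.31 to -0.84).

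*Il15*, the cytokine that keeps NK cells alive, stood at 13.3, 14.7, and 22.4 CPM in the vehicle libraries, 20.0, 20.0, and 18.4 CPM in the spironolactone libraries, and 11.7, 14.3, and 12.1 CPM in the prednisolone libraries. Its log2 fold change between the drugs was 0.62 ± 0.17 (adjusted *P* = 0.054), with every spironolactone library above every prednisolone library. *Il18* and *Clec2d*, which encodes a ligand of receptors of the *Klrb1* family, were at 0.24 ± 0.12 and 0.43 ± 0.15 (adjusted *P* = 0.27 and 0.12). Against vehicle, no gene of the list passed with either drug in edgeR, where an unadjusted *P* under 0.05 was reached by 3 with prednisolone (14.2% of all genes) and 0 with spironolactone (9.29% of all genes).

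Markers of other innate lymphoid cells were sparse. Of 7 listed, 3 had enough counts, and *Il1rl1* and *Areg* were at 0.32 ± 0.23 and -0.46 ± 0.48 on the log2 scale between the drugs, where no marker passed in edgeR or had an unadjusted *P* under 0.05 (count 0). The growth factor gene *Areg* and the interleukin-33 receptor *Il1rl1* are also made by myeloid cells.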
